A study of Mus musculus with 2 samples.

Results

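The miR-26 family of the mouse consists of 3 microRNA (miRNA) genes, Mir26a-1, Mir26a-2 and Mir26b, each placed inside a gene for a small C-terminal-domain phosphatase (Ctdspl, Ctdsp2 and Ctdsp1). These 3 genes were taken by name from the 1973 miRNA genes counted in embryonic kidney, and all 3 are in the files. They were chosen with their levels known, so the levels are a description. Kidneys were collected from healthy B6NCrl mice at embryonic day 15.5 (E15.5), with both sexes pooled and no treatment given in the labels. The samples form 1 group of 2 libraries, called biological replicates in the labels. Replicate 1 is a pool of kidneys from 78 embryos and replicate 2 a pool from 62 embryos. Small RNA was sequenced from total RNA, with a labelled size range under 30 nt. The libraries hold 7434182 and 5863293 reads on the own strand of miRNA genes. No second tissue, age or genotype was included, so only the libraries could be compared.

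A miRNA is cut from a hairpin in a longer transcript, and its seed, bases 2 to 8 of the mature strand, pairs with target messenger RNAs and lowers their output. The miR-26 family is expressed in many tissues and is known for restraining growth, with the chromatin enzyme Ezh2 among its well-studied targets and repression by Myc among its known inputs. Its hosts encode phosphatases that act on the tail of RNA polymerase II and, in work on cell cycle control, on the retinoblastoma protein. Since the hairpins lie within introns of these genes, host and miRNA can be made from the same primary transcript.

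The sequences of the family are shown first because they decide which gene a read can be assigned to. They are RefSeq sequences on GRCm38.p6, the assembly also called mm10, and all 3 hairpins matched the GENCODE M21 hairpins letter for letter. In the hairpins, capitals mark the mature arms, the 5p arm first and the 3p arm second.
Mir26a-1, chr9:119031796-119031885, plus strand: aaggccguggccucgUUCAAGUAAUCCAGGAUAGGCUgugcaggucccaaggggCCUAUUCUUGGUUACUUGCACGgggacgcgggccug
Mir26a-2, chr10:126995530-126995613, plus strand: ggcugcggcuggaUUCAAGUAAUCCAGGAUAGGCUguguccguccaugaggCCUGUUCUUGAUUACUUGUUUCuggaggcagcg
Mir26b, chr1:74394310-74394394, plus strand: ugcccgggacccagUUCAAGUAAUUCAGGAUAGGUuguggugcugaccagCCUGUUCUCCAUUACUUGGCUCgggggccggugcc

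The hairpins measure 90, 84 and 85 nt in that order. Folded with RNAfold, they had predicted minimum free energies of -49.4, -44.5 and -43.5 kcal/mol, with 34, 32 and 33 base pairs.

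The mature arms carry the seeds, in capitals below. They are shown to set apart what the 3 genes share and where they differ.
miR-26a-5p (Mir26a-1 and Mir26a-2): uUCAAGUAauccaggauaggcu
miR-26b-5p (Mir26b): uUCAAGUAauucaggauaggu
miR-26a-1-3p (Mir26a-1): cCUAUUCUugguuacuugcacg
miR-26a-2-3p (Mir26a-2): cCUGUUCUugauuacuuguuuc
miR-26b-3p (Mir26b): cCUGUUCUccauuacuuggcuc

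The 5p seed UCAAGUA was carried by 3 of 1738 mature entries in the RefSeq table, 1 from each of these genes. Mir26a-1 and Mir26a-2 have the same 22-nt 5p arm. With positions counted from 1 at the 5′ end of miR-26a-5p, the arm of Mir26b differs by C11U and C21U over the 21 positions compared, both outside the seed. The 3p arms differ more. The arm of Mir26a-2 differs from that of Mir26a-1 at 6 of 22 positions, among them A4G within the seed, and that of Mir26b differs from it at 8. The 3p arms of Mir26a-2 and Mir26b share the seed CUGUUCU, which the RefSeq table also lists for the 3p arms of Mir7039 and Mir6932, while Mir26a-1 has CUAUUCU.

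The identity of the Mir26a genes extends past the mature arm. The stretch they share is in capitals below, with the neighbouring bases of each gene on either side.
Mir26a-1, chr9:119031808-119031840: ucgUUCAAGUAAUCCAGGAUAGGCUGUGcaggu
Mir26a-2, chr10:126995540-126995572: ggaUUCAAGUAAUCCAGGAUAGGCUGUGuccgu

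The shared stretch is 25 nt long, so a read that starts at the first base of the arm meets the first base that tells the genes apart at position 26. The longest stretch shared with Mir26b was 11 nt for Mir26a-1 and 10 nt for Mir26a-2. The files set reads that match several loci apart in a line of their own and assign them to no gene. Replicate 1 had 3901906 such reads and replicate 2 had 3222867, with no record of their loci. A read lying wholly within the 25-nt stretch matches both Mir26a genes and so belongs to that line. Among the 2202 miRNA hairpins of GENCODE M21, the 5p arm of Mir26a-1 and Mir26a-2 had 1 exact copy in a gene elsewhere, and their 3p arms and both arms of Mir26b had 0. Counts of the Mir26a genes therefore leave out miR-26a-5p reads of that kind, and their own values do not measure the level of miR-26a.

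The hosts are alike around the hairpins, by the GENCODE M21 annotation of mm10. Mir26a-1 (ENSMUSG00000065513.1) lies in intron 5 of the 8-exon principal transcript of Ctdspl, 105343 nt after its start. Mir26a-2 (ENSMUSG00000065430.1) lies in intron 5 of the 8-exon principal transcript of Ctdsp2, 16813 nt after its start. Mir26b (ENSMUSG00000065468.1) lies in intron 4 of the 7-exon principal transcript of Ctdsp1, 2801 nt after its start. In all 3 hosts the exon before the hairpin's intron measures 57 nt, the next exons measure 93 and 186 nt, and 3 exons follow the intron. The introns differ in length, at 3283 nt in Ctdspl, 1946 nt in Ctdsp2 and 564 nt in Ctdsp1. Mir26b sits near the middle of its short intron, 234 nt after the upstream exon and 245 nt before the downstream one. The last base of Mir26a-2 overlaps, by 1 nt, the first exon of the shorter Ctdsp2 transcripts Ctdsp2-201 and Ctdsp2-203, so it is not intronic to every annotated transcript. No hairpin overlaps an exon of any other gene. Levels of the host messenger RNAs were not analysed here.

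**Figure D1:**
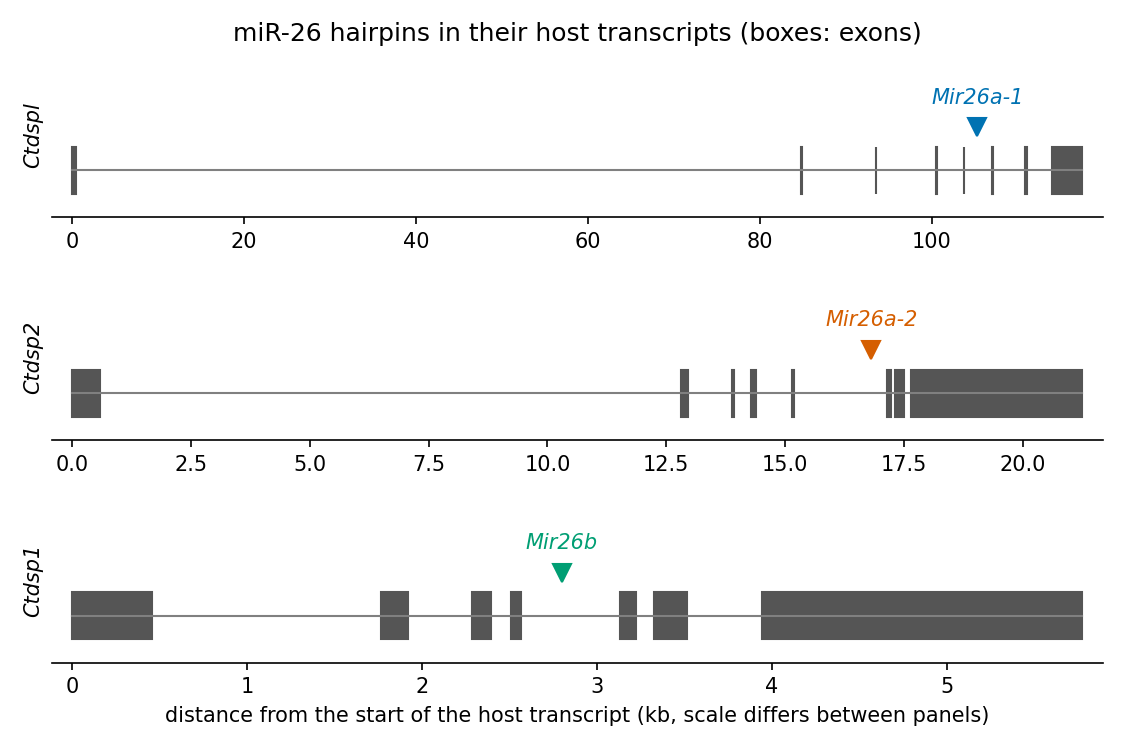
Position of each miR-26 hairpin (triangle) in the principal transcript of its host, with exons as boxes and introns as lines; the x axis gives the distance from the transcript's start in kb, on a scale of its own in each panel. The hairpin lies 105.3 kb, 16.8 kb and 2.80 kb after the start of Ctdspl, Ctdsp2 and Ctdsp1, with 3 exons downstream in each.

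Nearly all reads assigned to the family were those of Mir26b. Mir26b had 196553 own-strand reads in replicate 1 and 154498 in replicate 2. Scaled to a library total of 1000000 own-strand gene reads (CPM), this was 26439 CPM (95% exact binomial interval 26324 to 26555) and 26350 CPM (26221 to 26480). The mean was 26395 ± 63.0 CPM (SD, n = 2), or 2.64% ± 0.00630 of the counts. By library totals the values were close together, with overlapping intervals, but the SD was 1720 CPM with TMM scaling and 2135 CPM with DESeq2 size factors. Mir26b ranked 10 in replicate 1 and 11 in replicate 2 among the 1973 genes. Intervals cover counting error only and leave out differences between the pools. They also treat reads as independent molecules, which they are not.

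Mir26a-2, one of the genes for miR-26a, had 303 and 264 own-strand reads. Its level was 40.8 CPM (36.3 to 45.6) in replicate 1 and 45.0 CPM (39.8 to 50.8) in replicate 2, with a mean of 42.9 ± 3.02 CPM (SD, n = 2). It stood at rank 213 and rank 221, and its intervals overlapped between the libraries. Mir26a-1, the other gene for miR-26a, had 72 and 78 reads. Its level was 9.68 CPM (7.58 to 12.2) and 13.3 CPM (10.5 to 16.6), with a mean of 11.5 ± 2.56 CPM, and its ranks were 283 and 275. It was the lowest of the family in both libraries, above the 0.404 and 0.512 CPM that a count of 0 (up to 3 counts) allows. Both Mir26a genes together held 375 and 342 reads.

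**Figure D2:**
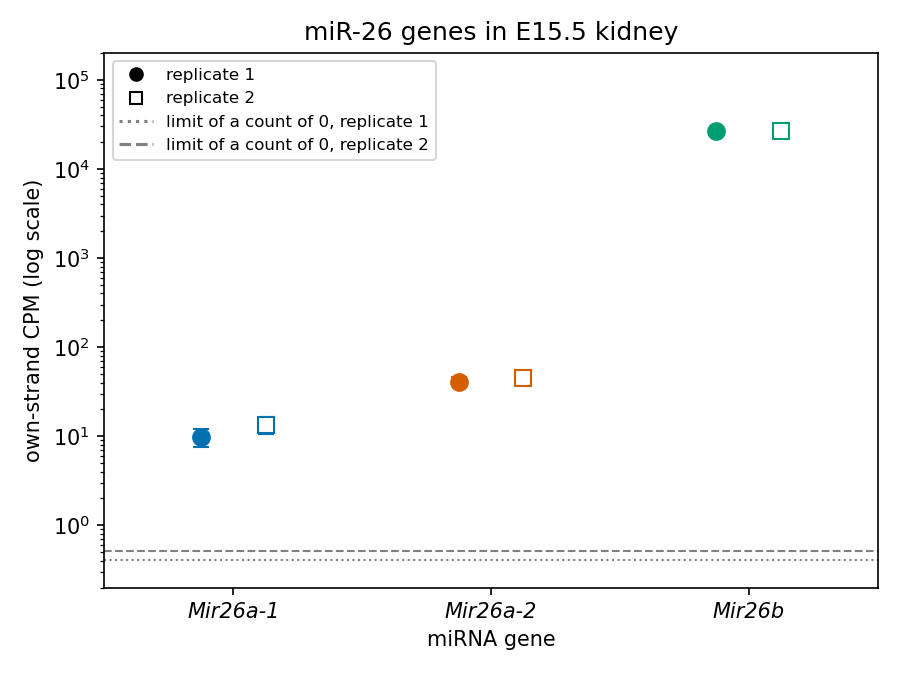
Own-strand CPM (log axis) of the 3 miR-26 genes in replicate 1 (filled circles) and replicate 2 (open squares), with 95% exact binomial intervals as bars (hidden by the symbol where short) and the limit of a count of 0 as grey lines. Mir26b lies at 26439 and 26350 CPM, Mir26a-2 at 40.8 and 45.0 CPM and Mir26a-1 at 9.68 and 13.3 CPM.

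The order of the 3 genes, Mir26b above Mir26a-2 above Mir26a-1, was the same in both libraries and did not depend on hairpin length. Per nucleotide of hairpin, the level was 311 and 310.0 CPM for Mir26b, 0.485 and 0.536 CPM for Mir26a-2, and 0.108 and 0.148 CPM for Mir26a-1. The family as a whole held 2.65% of own-strand counts (95% exact binomial interval 2.64 to 2.66) in replicate 1 and 2.64% (2.63 to 2.65) in replicate 2. Within it, Mir26b took 99.81% and 99.78% of the reads, Mir26a-2 took 0.154% and 0.170%, and Mir26a-1 took 0.0366% and 0.0504%. The order of assigned reads is not an order of miR-26a against miR-26b, for the reason given with the sequences.

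All reads of the family lay on the strand of the hairpin. The opposite-strand count was 0 for each of the 3 genes in both libraries, against 164495 and 139702 opposite-strand reads over all miRNA genes.

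The mix of the family was compared between the libraries by the counts of each pair of genes, which does not depend on the library totals. The tests were two-sided Fisher's exact tests, adjusted by Benjamini-Hochberg over the 3 pairs, and they compare these libraries by counting error. Reads of Mir26b exceeded those of Mir26a-1 by 2730 times (2168 to 3489) in replicate 1 and 1981 times (1587 to 2506) in replicate 2 (adjusted exact p = 0.174). They exceeded those of Mir26a-2 by 649 times (580 to 728) and 585 times (519 to 663), with an adjusted exact p of 0.27. Reads of Mir26a-2 exceeded those of Mir26a-1 by 4.21 times (3.24 to 5.52) and 3.38 times (2.62 to 4.42), with the same adjusted exact p of 0.27. None of the 3 ratios passed the threshold of 0.05, and 0 of 3 had an unadjusted p under it. With 72 and 78 reads of Mir26a-1, a change of the ratio within these intervals was not detectable at this depth.

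Each gene was also set against the library total in a two-sided exact binomial test run over the 378 genes that reached a mean count of 10, adjusted by Benjamini-Hochberg over all of them. A gene was called at an adjusted p under 0.05. Of the 378 genes, 55.8% were called in either direction. Of the 3 miR-26 genes, 0 were called, and 0 had an unadjusted p under 0.05. With so few genes nothing about the family is read from this count, which also changed with the scaling.

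Mir26b had a log2 ratio of replicate 2 over replicate 1 of -0.0049 (95% exact interval -0.014 to 0.0048, adjusted exact binomial p = 0.418). Mir26a-2 had a log2 ratio of 0.14 (-0.10 to 0.39, adjusted exact binomial p = 0.325), and Mir26a-1 one of 0.46 (-0.02 to 0.94, adjusted exact binomial p = 0.0946). The median log2 ratio over the 378 genes was 0.15, so Mir26a-2 lay near it, Mir26a-1 above it and Mir26b below it. The call for Mir26b depended on the scaling, and 1 of 3 members, Mir26b, was called under each other scaling tried. TMM scaling moved every log2 ratio by -0.13, which put Mir26b at -0.13 with an adjusted exact binomial p of 3.46e-161, and DESeq2 size factors moved it by -0.16, to -0.16 with an adjusted exact binomial p of 1.00e-247. Mir26a-1 and Mir26a-2 were called under neither scaling. Among all 378 genes, calls split into 152 higher and 59 lower in replicate 2 by library totals, 109 and 111 with TMM, and 103 and 120 with DESeq2 size factors.

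Set beside genes of like depth, the ratio of Mir26b was small by library totals. Another 13 genes had a mean count within 2-fold of its 175525.5 reads, and 12 of these were called, with a median absolute log2 ratio of 0.11 and a range from 0.0045 to 0.45. A smaller absolute ratio was found in 1 of them, Mir17 at 0.0045. Around Mir26a-2, 52 genes had a median absolute log2 ratio of 0.34 and 11 of them a smaller one than its 0.14. Around Mir26a-1, 63 genes had a median of 0.39, below its 0.46, and 39 of them a smaller value. Of these 63 genes, 19 were called. The ratio of Mir26a-1 was thus of a size common at other genes with few reads, and Mir26a-1 was not called. The genes with log2 ratios nearest to that of Mir26b, among 155 others averaging 1000 reads or more, were Mirlet7g at -0.0024, Mir27b at -0.0020 and Mir151 at -0.0019. Those nearest to Mir26a-2 were Mir27a at 0.15, Mir361 at 0.13 and Mir543 at 0.13, and those nearest to Mir26a-1 were Mir330 at 0.46, Mir30e at 0.45 and Mir155 at 0.44. This likeness rests on 2 libraries.

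**Figure D3:**
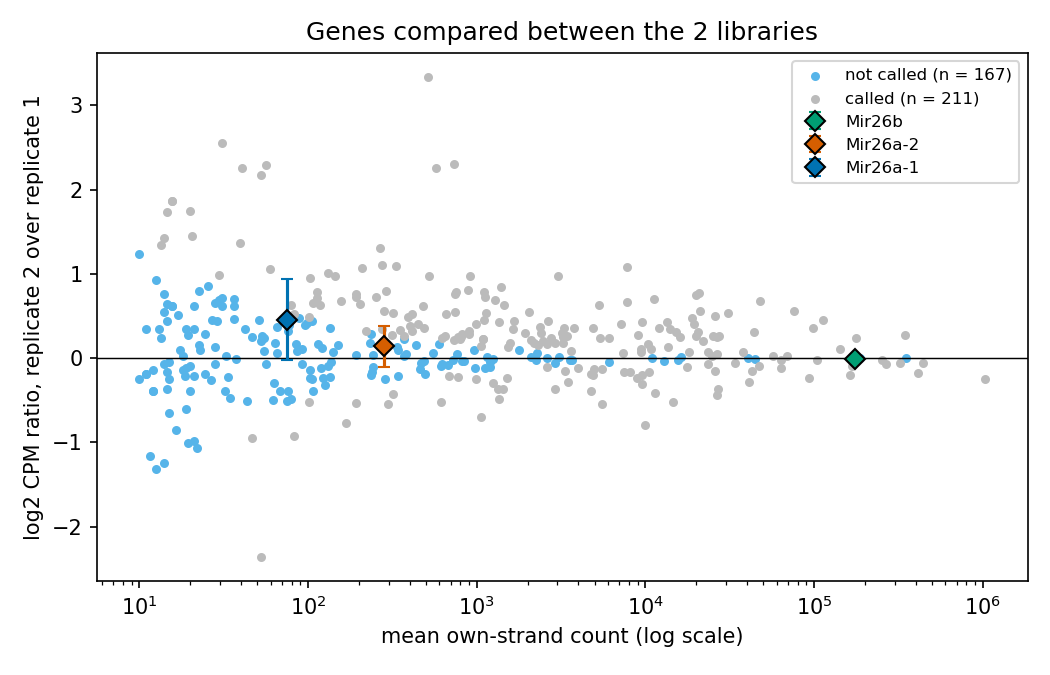
Log2 CPM ratio of replicate 2 over replicate 1 against the mean own-strand count (log axis) for the 378 genes tested, in grey where called by the exact binomial test and in light blue where not; diamonds are the miR-26 genes with 95% exact intervals. The interval of Mir26b lies within its symbol near 0, while the intervals of Mir26a-2 (-0.10 to 0.39) and Mir26a-1 (-0.02 to 0.94) are wide and include 0.

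The neighbours of each gene in rank show which genes had a like level of assigned reads. For the Mir26a genes this is not the level of miR-26a. By mean CPM, Mir26b came after Mir17, of the miR-17-92 cluster, at 28125 ± 62.0 CPM and Mir143, a smooth muscle miRNA, at 26816 ± 3111 CPM. It came before Mir196b, of the Hoxa cluster, at 25231 ± 1222 CPM and Mir130a at 24333 ± 2437 CPM (SD, n = 2 each). Mir143, with 24616 and 29016 CPM, overlapped Mir26b, while Mir17 lay above it and Mir196b and Mir130a below it in both libraries. Mir26a-2 stood between Mir770 at 43.0 ± 22.2 CPM and Mir449a at 42.4 ± 5.15 CPM, with Mir103-2 and Mir138-1 next on either side, and all 4 overlapped its range. Mir26a-1 stood between Mir150 at 11.5 ± 1.82 CPM and Mir135a-2 at 11.3 ± 2.16 CPM, with Mir1298 and Mir8112 next, and its range overlapped those of all 4. Among these neighbours, Mir103-2, Mir138-1, Mir135a-2 and Mir8112 share 20 nt with a miRNA gene elsewhere, so their counts can be too low.

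The place of the Mir26a genes among other miRNA genes with copies was described from sequence alone. A mature arm listed by RefSeq was found for 916 genes of the files. In 814 of them, Mir26b included, no listed arm had an exact copy in a miRNA gene elsewhere. The median of these 814 genes was 0.458 CPM, and Mir26b stood above 804 of them. Another 56 genes, Mir26a-1 and Mir26a-2 among them, had a copy of some but not every arm. Their median was 15.7 CPM, with Mir26a-2 above 34 and Mir26a-1 above 25 of the 56. The highest of the 56 was Mir92-1 of the miR-17-92 cluster, at 3334 ± 335 CPM (SD, n = 2), and all 56 stood below Mir26b. In the last 46 genes every listed arm had a copy, and their median was 0 CPM. The search covered miRNA hairpins and not the whole genome.

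**Figure D4:**
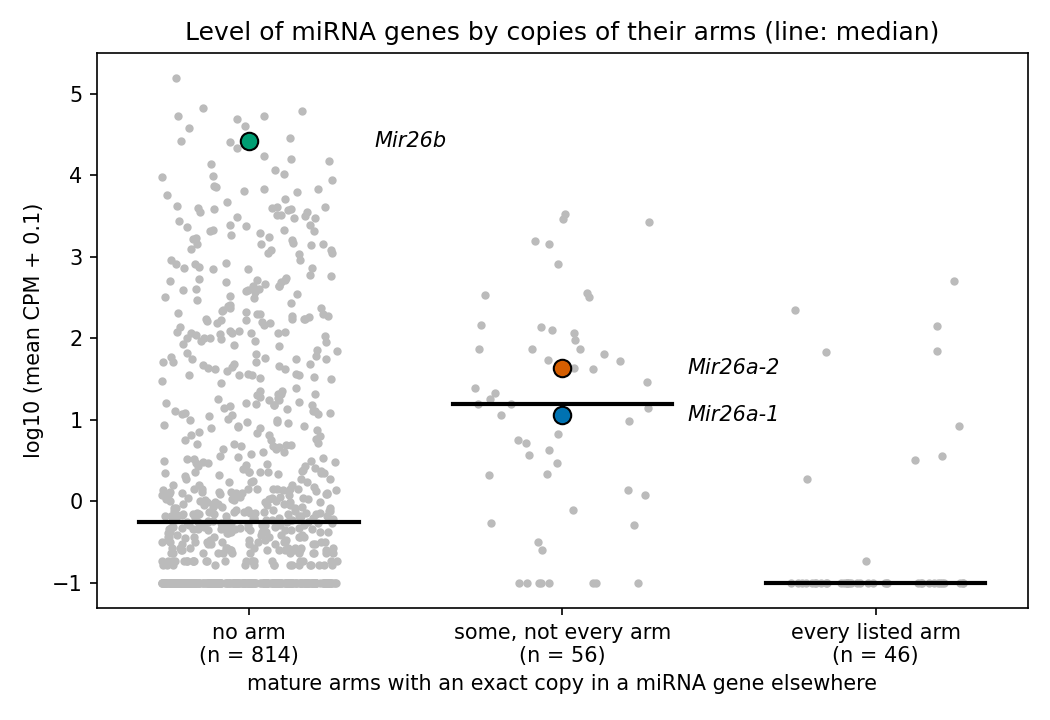
Log10 of mean CPM plus 0.1 for the miRNA genes with RefSeq mature arms, grouped by whether no arm, some arms or every listed arm has an exact copy in a miRNA gene elsewhere; grey points are genes, black lines medians, and the miR-26 genes are coloured. Mir26b lies near the top of the 814 genes without a copied arm, and Mir26a-1 and Mir26a-2 lie on either side of the median of the 56 genes with some arms copied.

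Other miRNA families also lie in paralogous hosts, and 10 genes of 4 such families were listed for comparison. All 10 reached 1 CPM in both libraries, as did all 3 miR-26 genes, against 19.97% of the 1973 genes. The family hosted by the pantothenate kinase genes, which supply coenzyme A synthesis, also differed widely in assigned reads among its members. Mir107, in Pank1, has no exact copy of an arm and stood at 1123 ± 87.9 CPM, though it shares 20 nt with a miRNA gene elsewhere. Mir103-2, in Pank2, and Mir103-1, in Pank3, share an arm with each other and stood at 43.2 ± 11.7 and 2.84 ± 0.163 CPM (SD, n = 2 each). In the other families all genes stood below Mir107. They ran from 2.69 ± 0.188 CPM for Mir208a, in the myosin gene Myh6, to 73.9 ± 12.9 CPM for Mir128-1, in R3hdm1. A 20-nt stretch is shared with a miRNA gene elsewhere by 7 of the 10, so their counts can be too low. Of the 10 genes, 3 were called higher and 2 lower in replicate 2, against 40.2% and 15.6% of all tested genes. The median log2 ratio of the 10 was -0.13, against 0.15 for all tested genes.

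The family was set beside other miRNAs that act on the step from G1 to S phase. The listed miRNAs that restrain this step held 18 measured members, all at 1 CPM or more in both libraries and 8 at 1000 CPM or more. They summed to 13.5% and 15.0% of counts, above the 2.65% and 2.64% of the miR-26 family. Of these, the miR-15/16 family held 0.608% and 0.590%, led by Mir15a at 2728 ± 101 CPM, and the miR-34 family, which p53 induces, held 0.0577% and 0.0653%. In assigned reads, Mir26b alone was thus above both of those families. Mir16-1 and Mir16-2 each have an arm with an exact copy in a miRNA gene elsewhere, so the miR-15/16 share can be too low. The let-7 family held the rest of the sum, at 12.9% and 14.3%. The miR-17-92 cluster and its paralogs, which promote the same step, held 6.26% and 6.16% over 15 members. Mir17, its leading member, exceeded Mir26b by a small margin (28081 against 26439 CPM in replicate 1, 28169 against 26350 CPM in replicate 2). In replicate 2, 10 restraining genes were called higher and 3 lower, against 40.2% and 15.6% of all tested genes. The let-7 family held 8 of these higher and 1 of these lower calls, the miR-15/16 family 1 and 2, and the miR-34 family 1 and 0. Of the promoting genes, 3 were called higher and 5 lower. These calls are by library totals, and the split of calls over all genes changed with the scaling. The median log2 ratios were 0.05 for the restraining and -0.02 for the promoting genes, against 0.15 for all tested genes. Not analysed here were Mir497, Mirlet7e and Mirlet7f-1. Moreover, 7 of the 18 restraining and 4 of the 15 promoting genes share 20 nt with a miRNA gene elsewhere, so these sums can be too low. The share of the miR-26 family can be too low as well, since it leaves out miR-26a-5p reads that match both Mir26a genes.

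The labelled tissue was checked against miRNA markers. The 4 listed markers of renal epithelium (Mir200b, Mir200c, Mir429 and Mir30a) were above 1000 CPM in both libraries. Mir200a and Mir141 of the same miR-200 family, which were not listed, were below it, at 775 and 674 CPM and at 569 and 468 CPM. Of the unlisted miR-30 genes, Mir30e and Mir30d were above 1000 CPM in both libraries. Mir30b, Mir30c-1 and Mir30c-2 were far below it in both, with Mir30c-2 the lowest at 47.3 and 59.5 CPM. Mir30c-1 and Mir30c-2 each have an arm with an exact copy in a miRNA gene elsewhere, so their counts can be too low. The 4 Hox-cluster markers summed to 25.9% and 22.3% of counts, and the lowest of them, Mir196a-1, stood at 56.2 and 70.3 CPM. Mir126a, which marks the endothelium of the organ's vessels, stood at 4.97% and 4.78%. Of the 10 listed markers of blood, liver, muscle and endocrine cells, 0 were at a count of 0. Of them, Mir375, Mir206, Mir122, Mir223, Mir451a, Mir155 and Mir144 stood above Mir196a-1 in both libraries, led by Mir375 at 1243 and 1677 CPM. Only Mir150, Mir208b and Mir499 stood below it. Mir196a-1 has an arm with an exact copy in a miRNA gene elsewhere, so its count can be too low. Mir196a-2, in the Hoxc5 gene and not listed, also has such an arm. Mir196a-2 stood at 2416 and 3366 CPM, above all 10 of those blood, liver, muscle and endocrine markers in both libraries. The erythroid pair summed to 0.0339% and 0.0466%, the 3 leukocyte markers to 0.0619% and 0.0700%, and the 3 striated muscle markers to 0.101% and 0.0695%. Mir122 of hepatocytes stood at 0.0319% and 0.0628%, and the endocrine Mir375 at 0.124% and 0.168%. Each of these is below the 2.64% of Mir26b. The family is known from many cell types, and which cells of the pools carried it was not tested. In such bulk samples, fewer cells of a type and less RNA per cell cannot be told apart.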

How the data were processed

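Small RNA reads from 2 pools of E15.5 kidneys were used as the read counts per miRNA gene that the authors deposited. Per the deposited notes, these counts came from alignments to mm10 with the GENCODE M4 annotation. Which aligner and counter were run is not given in the sources used here. Library sizes leave out unmapped reads (17.7% and 19.7% of reads in replicates 1 and 2), reads outside annotated genes (2.57% and 4.05%) and those that matched several loci (27.1% and 26.6%). Names and positions came from GENCODE M21, which matched 1894 of 1973 genes, and sequences from RefSeq (GRCm38.p6).

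Own-strand counts were scaled to CPM. The single group allows no contrast between groups. The libraries were compared with exact binomial and Fisher's exact tests. Only the binomial test was tried on simulated counts, which held counting error alone, with calls that also required a fold of 2. That trial does not cover the spread between these libraries or the calls made here. p-values and intervals (95%, Clopper-Pearson) cover counting error, and separate embryos in the pools are known only from the labels. Alternatives used TMM factors (edgeR 4.0.16) and size factors (DESeq2 1.42.0) in R 4.3.3. Other steps used Python 3.11.15, scipy 1.17.1, pandas 2.3.3, numpy 2.4.6, matplotlib 3.10.9 and RNAfold 2.7.2.

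The members, lists and tests were chosen with earlier results of these data known. Named genes are the members, the 2 genes ranked above and below each, the 3 nearest in log2 ratio and genes of the lists. Mir92-1, Mir200a, Mir141, Mir196a-2, the unlisted miR-30 genes and the count of genes within 2-fold in depth were added after values were seen.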

Additional observations from a re-analysis of the deposited data

How the results depend on the processing

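No paired analysis was possible because the design has 1 group. With each replicate left out, CPM ranged from 26350 to 26439 for Mir26b, from 40.8 to 45.0 for Mir26a-2 and from 9.68 to 13.3 for Mir26a-1. Ranks ranged from 10 to 11, from 213 to 221 and from 275 to 283. The family's share ranged from 2.64% to 2.65%, and the shares within it from 99.78% to 99.81%, 0.154% to 0.170% and 0.0366% to 0.0504%. With reads matching several loci added to the total, which lowers every level, values were 17171, 27.9 and 7.47 CPM and 1.72% for the family. Without the most abundant gene in the total they were 31207, 50.7 and 13.6 CPM and 3.13%. Counted without regard to strand, Mir26b stood at 25802 CPM, the family at 2.59%, and Mir26a-2 and Mir26a-1 at ranks 230 and 288. Among genes sharing no 20-nt stretch, plus the members, these ranks were 172 and 219. Ranked by CPM per nucleotide, an alternative chosen after seeing the data, Mir26b stood at rank 12. Its log2 ratio was past the threshold at -0.13 (TMM), -0.16 (DESeq2 size factors), -0.028 (total with reads matching several loci) and -0.050 (without the most abundant gene). By library totals its 95% interval was -0.014 to 0.0048. That of Mir26a-2 changed sign to -0.016 with DESeq2 size factors (adjusted exact binomial p = 0.929). Against 211 of 378 genes called, 220 were called with TMM, 223 with DESeq2 size factors and 214 without the most abundant gene in the total, each of 378. With no filter 216 of 729 genes were called, and with a mean count minimum of 100 it was 194 of 264. Depth limits the Mir26a genes, with 72 to 303 reads each, beside the reads that match both loci.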
